A study of Mus musculus with 4 samples.

Results

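Saa-high luminal cells are epithelial cells of mouse mammary tumours that carry the transcripts of the serum amyloid A genes Saa1 and Saa2. A cell barcode was counted as gated epithelial when its raw UMIs (unique molecular identifiers, each standing for 1 captured transcript) of Krt8, Krt18 and Epcam summed to at least 3 and those of C1qa, C1qb, Col3a1 and Cdh5 to at most 1. It was Saa-high when its Saa1 and Saa2 UMIs, called Saa UMIs below, summed to at least 5, and Saa-negative when that sum was 0. The rule gave 2055 Saa-high cells among 22925 gated epithelial cells and 36162 barcodes in all. The comparison arm held 17485 Saa-negative cells, and 3385 gated cells with 1 to 4 Saa UMIs stood in neither arm. The Saa UMIs chose the cells, so Saa1 and Saa2 are described and not tested.

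All cells came from 1 group of tumours. The animals were FVB females aged 13 to 14 weeks that carried MMTV-PyMT, K14Cre and Rosa-tdTomato. The polyoma middle T oncogene is driven by the mammary tumour virus promoter and gives multifocal adenocarcinomas, and tdTomato marks cells in which the keratin 14 promoter has driven Cre, or their descendants. Tumour 1 pooled several glands of mouse 1, tumour 2 was an inguinal gland of mouse 2, and mouse 3 gave tumour 3, from a thoracic gland, and tumour 4, from an inguinal one. Tissue was dissociated with enzymes and dead cells were removed, and every comparison below lies between cells of the same tumours.

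Serum amyloid A proteins are small secreted apolipoproteins of the acute-phase response. In the liver Saa1 and Saa2 are induced by interleukin 6, acting through STAT3 and C/EBP factors, and by interleukin 1, acting through NF-kB. Saa3 is made outside the liver in mice, the mammary gland included, and mammary epithelium switches on acute-phase and innate defence genes, STAT3 targets among them, when milk removal stops and involution begins.

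Saa1 (ENSMUSG00000074115, chr7:46740497-46742980, minus strand) and Saa2 (ENSMUSG00000057465, chr7:46751790-46754313, plus strand) lie head to head in the GRCm38 build. Saa3 (ENSMUSG00000040026, chr7:46711998-46715700, minus strand) lies beyond Saa1, on the side away from Saa2. Their upstream sequences are shown because Saa1 and Saa2, which chose the cells, are near copies of each other there and Saa3, which did not, is not. Each is the RefSeq promoter window (GRCm38.p6) from 250 bases before the RefSeq start, 5′ to 3′ in the direction of transcription, without the bases that GENCODE M21 counts as transcribed. Capitals mark matches to an NF-kB type motif, GGG and CC with 5 bases of any kind between them, and to TTGCNNAA, a C/EBP type motif.
Saa1 (chr7:46742981-46743230, minus strand): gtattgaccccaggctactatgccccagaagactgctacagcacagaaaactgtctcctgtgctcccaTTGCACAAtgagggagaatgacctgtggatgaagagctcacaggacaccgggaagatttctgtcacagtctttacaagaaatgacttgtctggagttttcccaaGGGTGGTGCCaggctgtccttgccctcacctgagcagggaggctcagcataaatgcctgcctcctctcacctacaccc
Saa2 (chr7:46751583-46751789, plus strand): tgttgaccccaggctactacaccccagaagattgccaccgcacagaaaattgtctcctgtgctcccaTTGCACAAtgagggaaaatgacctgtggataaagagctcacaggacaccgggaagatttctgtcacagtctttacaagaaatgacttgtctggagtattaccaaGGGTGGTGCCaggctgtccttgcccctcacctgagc
Saa3 (chr7:46715701-46715926, minus strand): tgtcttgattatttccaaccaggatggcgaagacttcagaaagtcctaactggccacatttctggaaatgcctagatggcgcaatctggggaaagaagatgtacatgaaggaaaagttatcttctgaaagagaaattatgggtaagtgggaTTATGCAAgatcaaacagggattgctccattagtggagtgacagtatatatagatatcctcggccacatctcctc
Over the full windows Saa1 and Saa2 were identical at 238 aligned bases and differed at 11, with 2 gaps (94.8% identity), whereas Saa1 and Saa3 reached 48.5%. Saa1 and Saa2 both held TTGCACAA, 182 and 183 bases before the start, and GGGTGGTGCC, 78 and 79 bases before it. Saa3 held 1 match to TTGCNNAA, on its minus strand 99 bases before the start, and none to the NF-kB type motif. Both strands were searched, and the NF-kB type motif occurred in 45.8% and TTGCNNAA in 9.56% of 32851 mouse promoter windows of the same length. The further motifs TTGNNNCAA (5.02% of windows) and TTCNNNGAA, a STAT type motif (7.02%), had no match in these 3 windows, and TTGCNNAA was added after that had been seen. A match is a description of the letters and not a bound site.

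The 4 libraries held 8434 to 9580 barcodes and 20281799 to 39370565 UMIs, with 1922.5 to 3281 UMIs in the median barcode. Any pair of libraries shared 96 to 129 barcode sequences, and 1 of these was Saa-high in both libraries of mouse 3. Saa-high cells were deeper than Saa-negative cells in every tumour, with medians of 3255, 4862, 4526 and 3822 UMIs against 2329, 3383, 3470 and 2922 in tumours 1 to 4. Their median mitochondrial share was 0.682% to 0.784% against 0.720% to 0.957%. Tumours 3 and 4 share an animal, so the mouse, and not the tumour or the cell, is the replicate in every test.

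Saa-high cells made up 9.20% of the gated cells of tumour 1 (424 of 4610, exact 95% interval 8.38% to 10.1%). Their share was 2.92% in tumour 2 (238 of 8158, 2.56% to 3.31%). It was 12.8% in tumour 3 (551 of 4312, 11.8% to 13.8%) and 14.4% in tumour 4 (842 of 5845, 13.5% to 15.3%). The lowest share thus stood in the deepest library and the highest 2 in the tumours of 1 animal, and no interval of one mouse overlapped that of another. Over the mice the share was 8.61% ± 5.42 (SD, n = 3), and these intervals cover counting error only. After every cell had been thinned to 1500 UMIs, which left out shallower cells, the shares were 6.11%, 1.30%, 7.53% and 8.79%, in the same order.

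**Figure D1:**
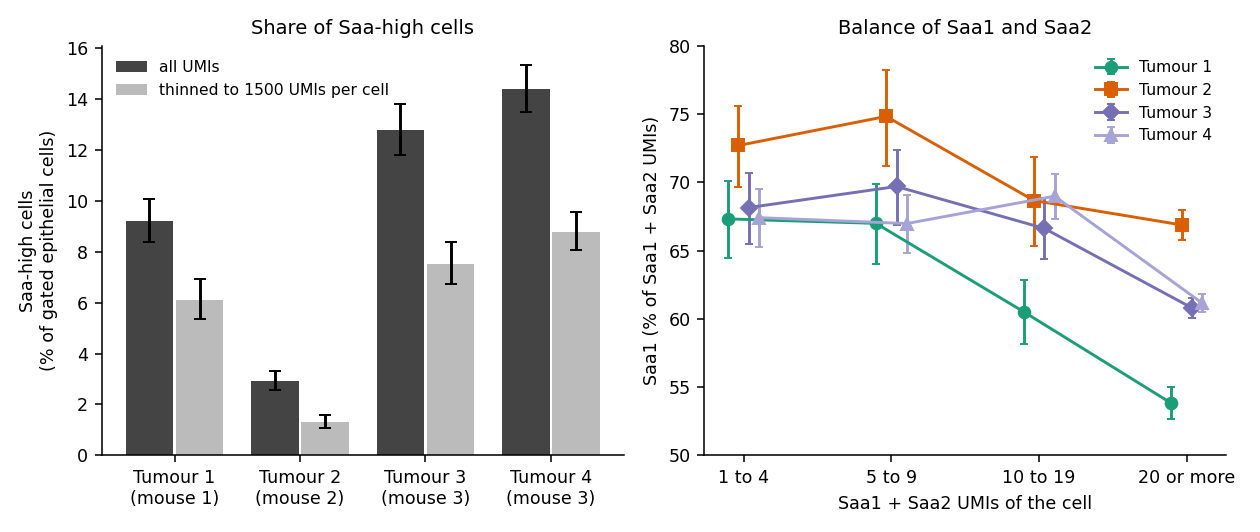
Left, Saa-high cells as a percentage of gated epithelial cells in each tumour, with all UMIs (dark) and after thinning to 1500 UMIs per cell (light); bars are shares and error bars exact 95% binomial intervals. Right, Saa1 as a percentage of Saa1 plus Saa2 UMIs in cells grouped by their Saa count, with exact 95% intervals; tumour 2 has the smallest share of Saa-high cells at 2.92%, and the Saa1 percentage is lowest in the cells with 20 or more Saa UMIs in every tumour.

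The Saa transcripts were spread very unevenly among the Saa-high cells. The median Saa-high cell held 13, 13, 17 and 14 Saa UMIs in tumours 1 to 4, and the highest cell held 234, 843, 668 and 545. At the threshold, 50, 37, 51 and 82 cells held 4 Saa UMIs and stayed outside, while 37, 34, 47 and 85 held 5 and were counted. At least 100 Saa UMIs were found in 15, 19, 39 and 48 cells. The tenth of the Saa-high cells with the most Saa UMIs held 40.1%, 58.0%, 45.7% and 45.2% of all that the Saa-high cells carried. As a group the Saa-high cells nonetheless stood at nearly the same level in each tumour, at 6521, 6157, 6709 and 6722 CPM (UMIs of a gene per 1000000 UMIs of the group's summed cells).

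Saa UMIs also occurred, at a lower rate, in barcodes of other cells, where free RNA in droplets is a known source. Non-epithelial barcodes, with at least 5 UMIs of C1qa, C1qb, Col3a1, Cdh5 and Cd3e and no UMI of Krt8, Krt18 or Epcam, carried a Saa UMI in 6.28%, 4.31%, 11.6% and 14.6% of cases, at median depths of 1317.5, 2457.5, 2360 and 2107.5 UMIs. Gated epithelial cells did so in 23.6%, 10.5%, 32.3% and 35.9%. At least 5 Saa UMIs were found in 4 of 2953 non-epithelial barcodes. The 5-UMI minimum therefore lay above nearly all of that background, while single Saa UMIs did not. These barcodes held no keratin UMI by definition and were shallower than Saa-high cells. With keratin left aside, 23, 4, 61 and 60 barcodes with more than 1 UMI of C1qa, C1qb, Col3a1 and Cdh5 reached 5 Saa UMIs.

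Saa1 outnumbered Saa2 in the Saa-high cells of every tumour, with a ratio that varied between tumours. The ratio of Saa1 to Saa2 UMIs was 1.29 in tumour 1 (exact 95% interval 1.24 to 1.34), 2.09 in tumour 2 (2.00 to 2.18), 1.62 in tumour 3 (1.57 to 1.67) and 1.67 in tumour 4 (1.63 to 1.71). The intervals of the 2 tumours of mouse 3 overlapped, and those of different mice did not. They treat each UMI as independent, although the tenth of cells with the most Saa UMIs held 40.1% to 58.0% of them. A difference between animals was therefore not tested. Saa1 made up 67.0%, 74.8%, 69.7% and 67.0% of the Saa UMIs in cells with 5 to 9 of them and 53.8%, 66.9%, 60.8% and 61.1% in cells with 20 or more. Within the latter cells both genes were usually present together, in 99.3%, 94.1%, 95.2% and 98.8% of cells. The annotated transcripts are 87.3% identical, and the reads came from FVB mice but were aligned to the C57BL/6J reference, so the split between Saa1 and Saa2 is uncertain, and its part in these ratios was not tested.

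The cells met the luminal part of their name. Krt8 stood at 531, 717, 583 and 648 CPM in the Saa-high cells of tumours 1 to 4 and at 549.8, 681, 657 and 659 CPM in the Saa-negative cells, with a log2 fold change of -0.01 ± 0.08 (SE), although Krt8 helped to gate both arms. Elf5, a transcription factor of luminal progenitor and alveolar cells that the gate did not use, reached 85.4, 91.3, 98.1 and 102 CPM against 60.4, 81.4, 69.4 and 71.4 CPM, and 1.88 to 6.92 CPM in non-epithelial barcodes. The tdTomato reporter had a UMI in 92.1%, 95.4%, 93.9% and 94.4% of Saa-high cells thinned to 1500 UMIs, in 90.8%, 86.3%, 88.6% and 92.0% of Saa-negative cells, and in 14.1% to 21.9% of non-epithelial barcodes. The unthinned shares were 96.5% to 100.0% in Saa-high and 94.7% to 98.2% in Saa-negative cells.

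Markers of other cell types were low, except in the neutrophil list, through S100a8. For macrophage, fibroblast and endothelial markers this follows in part from the gate, which capped C1qa, C1qb, Col3a1 and Cdh5 in both arms. The non-epithelial barcodes were in turn chosen by these genes and Cd3e, so the gap to them is a description. The 10 macrophage markers summed to 39.7 to 128 CPM in Saa-high cells, 77.9 to 173 in Saa-negative cells and 22697 to 29356 in non-epithelial barcodes. The 8 fibroblast markers summed to 23.01 to 72.7, 16.1 to 80.8 and 6687 to 11719 CPM in the same order. Of the 6 hepatocyte markers, Alb, Apoa2, Ttr and Serpina1c, which encode abundant liver proteins, were at 0 in all Saa-high cells. The 12 neutrophil markers summed to 108 to 262 CPM in Saa-high cells, nearly all of it S100a8, and Ly6g, Mmp8 and Ctsg were at 0. The same 12 markers summed to 37.4 to 193 CPM in Saa-negative cells and 17.9 to 202 in non-epithelial barcodes. The Saa-high sum was above the non-epithelial one in every tumour, and above the Saa-negative one in all but tumour 4. In tumour 4 a single Saa-negative barcode held 337 of the 1726 S100a8 UMIs of its arm. The T and NK cell markers summed to 4.88 to 17.8 CPM in Saa-high and 18.8 to 40.5 CPM in Saa-negative cells, and the endothelial markers to 14.8 to 25.2 and 17.6 to 31.8 CPM. Among all these markers S100a8 was called higher, and S100a9, Tyrobp and Ccl5 lower, in the comparison given further on. The leukocyte gene Ptprc had a UMI in 0% to 0.186% of thinned Saa-high cells, where 0 of 382 and 0 of 238 cells in tumours 1 and 2 allow up to 0.785% and 1.26%.

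Lrg1, Chil1, Prtn3 and Lao1 are the other genes by which the cells had been named, so their values are a description and not evidence for the name. Lrg1, a secreted acute-phase glycoprotein, reached 587, 1349.9, 912 and 1124 CPM in the Saa-high cells of tumours 1 to 4 and 224, 537, 212 and 456 CPM in the Saa-negative cells. Tumour 3 had the widest gap as a ratio and tumour 2 in CPM, and the Saa-high cells were higher within every tumour although the lowest Saa-high and highest Saa-negative values lay close together. Chil1, which encodes a secreted chitinase-like protein, reached 406, 2039, 1649 and 1808 against 192, 685, 605 and 672 CPM, and tumour 1 stood far below the other 3 in both arms. Prtn3 encodes proteinase 3, a serine protease best known from neutrophil granules, and reached 88.1, 64.1, 94.3 and 122 against 40.2, 14.1, 28.5 and 56.5 CPM without overlap of the arms. The granule enzyme genes Elane, Mpo and Ctsg were too low to be tested. Lao1, an L-amino acid oxidase known from mouse milk, reached 32.3, 20.2, 27.1 and 47.7 against 7.62, 5.87, 10.6 and 18.6 CPM, again without overlap.

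The question for all other genes was how the Saa-high cells differed from the Saa-negative epithelial cells around them. UMIs were summed per mouse and arm and tested with edgeR's quasi-likelihood test with the mouse as a block, and a gene was called at a Benjamini-Hochberg adjusted p under 0.05 over all genes tested. All adjusted p-values and log2 fold changes (± SE, n = 3 mice) below come from these fits. Of 13473 genes tested, 559 (4.15%) were called, 282 (2.09%) higher and 277 (2.06%) lower in Saa-high cells, around a median log2 fold change of -0.00. An unadjusted p under 0.05 was reached by 2139 of the 13473. Of the acute-phase and innate defence list, 24 of 45 genes passed the filter on low counts, and of these 15 were called higher and 1 lower, with a median log2 fold change of 1.08. The gene lists were drawn up with earlier results of these data known, and the 15 include Lrg1, Chil1, Prtn3 and Lao1.

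After Saa1 and Saa2, Saa3 had the highest log2 fold change among called genes of at least 20 CPM. It reached 33.0, 102, 95 and 120.0 CPM in the Saa-high cells of tumours 1 to 4, against 2.75, 1.72, 2.98 and 3.83 CPM in the Saa-negative cells and 6.92 to 42.8 CPM in non-epithelial barcodes. The arms stood more than 10-fold apart in every tumour, and the log2 fold change was 5.09 ± 0.22 (adjusted p = 8.12e-14). Few cells carried this signal: 18 of 424, 29 of 238, 44 of 551 and 72 of 842 Saa-high cells had a Saa3 UMI, and the top 1% of cells held 61.2%, 31.3%, 54.9% and 66.6% of the UMIs. Without those top cells Saa3 still stood at 12.8, 70.4, 42.8 and 40.1 CPM.

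Lcn2, the siderophore-binding lipocalin 2 that withholds iron from bacteria, was the most abundant gene of the list. Its level was 10054, 11881, 10071 and 10882 CPM in Saa-high and 6350.0, 6784, 5075 and 7478 CPM in Saa-negative cells. Every Saa-high value lay above every Saa-negative one, and the log2 fold change was 0.74 ± 0.06 (adjusted p = 7.63e-09). Haptoglobin, the haemoglobin scavenger encoded by Hp, reached 95.5, 32.8, 549.8 and 206 against 60.8, 1.75, 57.8 and 72.1 CPM. It was higher within each tumour, most so by ratio in tumour 2, where both arms were low (log2 fold change 2.05 ± 0.29, adjusted p = 6.93e-05). The top 1% of Saa-high cells held 30.3%, 53.2%, 43.2% and 56.1% of the Hp UMIs. Without those cells Hp stood at 66.6, 15.3, 312 and 90.7 CPM, close to the Saa-negative level in tumours 1 and 4. The call for Hp was lost without mouse 3 (adjusted p = 0.190) and with DESeq2 (adjusted p = 0.231).

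Further defence genes rose. Lbp, whose product hands lipopolysaccharide to CD14, reached 136, 195, 169 and 175 against 76.8, 97.3, 68.6 and 97.0 CPM (log2 fold change 0.97 ± 0.09), and its partner Cd14 reached 71.3, 167, 145 and 165 against 30.9, 71.1, 55.3 and 77.6 CPM (1.23 ± 0.10). Both were higher in all 4 tumours, with no overlap of the arms for Lbp. The iron-binding lactotransferrin gene Ltf rose by 1.11 on the log2 scale and the copper-carrying ferroxidase gene Cp by 1.09. The complement genes C3 and C4b rose by 1.38 and 1.00, and the metalloreductase gene Steap4 by 1.22. The adjusted p-values of these 7 genes were 0.000873 or lower.

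S100a8 and S100a9, whose products pair as calprotectin, moved apart. S100a8 reached 105, 126, 249.9 and 173 CPM in the Saa-high cells of tumours 1 to 4 against 33.3, 36.2, 56.6 and 129.6 CPM. S100a9 stood at 0, 0.697, 8.70 and 7.08 against 3.07, 18.2, 17.5 and 47.0 CPM. The log2 fold changes were 1.48 ± 0.12 and -2.32 ± 0.24 (adjusted p = 7.63e-09 and 7.86e-07). The S100a9 UMIs of the Saa-negative arm lay in few barcodes: 1 barcode held 171 of 553 in tumour 2 and 1 held 292 of 626 in tumour 4. For S100a8 in that arm, 1 barcode held 291 of 1096 UMIs in tumour 2 and 1 held 337 of 1726 in tumour 4. S100a8 had a UMI in 12.04%, 11.8%, 20.1% and 15.2% of thinned Saa-high cells and in 3.68%, 2.205%, 4.74% and 6.61% of Saa-negative cells. In non-epithelial barcodes that share was 0.752% to 2.98%, and unthinned it was 18.6% to 32.8% and 5.59% to 12.7% in the epithelial arms.

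**Figure D2:**
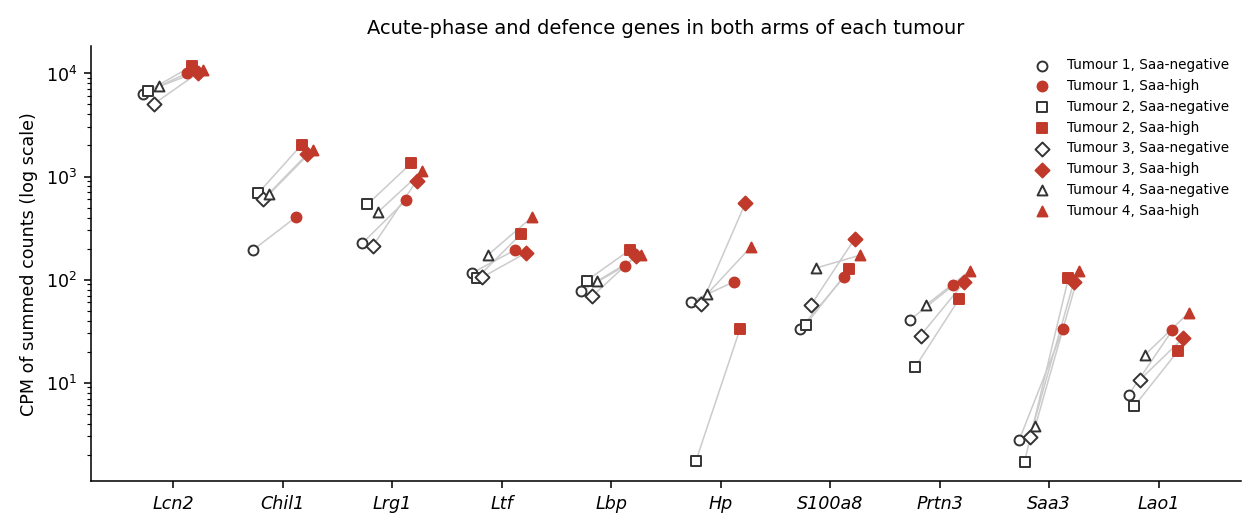
Summed level of 10 acute-phase and defence genes in each tumour, in CPM on a log scale; filled symbols are Saa-high cells, open symbols Saa-negative cells, and grey lines join the arms of 1 tumour. Every Saa-high symbol lies above the Saa-negative symbol of its tumour, from Lcn2 at around 10000 CPM to Lao1 at 20.2 to 47.7 CPM, and Saa3 has the widest gap.

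Of the IL-6 family and STAT3 list, 5 of 20 genes tested were called higher and 0 lower, with a median log2 fold change of 0.33. Osmr, the oncostatin M receptor subunit, reached 30.3, 66.2, 40.0 and 51.9 against 23.5, 33.5, 17.6 and 30.9 CPM and was higher in all 4 tumours (log2 fold change 0.83 ± 0.13, adjusted p = 0.000293). Stat3 itself reached 187, 275, 243 and 210.2 against 152, 234, 139 and 206 CPM, a rise of 0.31 ± 0.09 on the log2 scale close to the threshold (adjusted p = 0.043). Cebpd, a C/EBP transcription factor gene, rose by 0.64, although tumour 1 went the other way, at 13.5 against 17.2 CPM. The kinase gene Pim1 and the NF-kB cofactor gene Bcl3 rose by 0.55 and 0.56. Socs3, which encodes a feedback inhibitor of this pathway, stood at -0.14 ± 0.14 (adjusted p = 0.692), and Junb, Jak1 and Il10rb, at 0.23, 0.23 and 0.23, were not called either. Il6, Lif and Osm were too low to be tested. The count of 5 was 7, 1, 1 and 2 without tumours 1, 2, 3 and 4 in turn, 0 without mouse 3, and 1 with DESeq2.

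Of the NF-kB response list, 0 of 30 genes tested were called by edgeR or by DESeq2, and the median log2 fold change was 0.22. An unadjusted edgeR p under 0.05 was reached by 8 of the 30, and by 2139 of all 13473 genes tested. Without tumour 1 the count of calls was 2 and without mouse 3 it was 1. The most abundant was Nfkbia, the inhibitor that NF-kB induces, at 249.6, 384, 306 and 276 against 238, 280.0, 247 and 237 CPM (0.27 ± 0.09, adjusted p = 0.0998). Sod2, Nfkb1 and Tnfrsf1a stood at -0.13 ± 0.09, 0.37 ± 0.13 and 0.31 ± 0.12. Of the proposed SAA receptors, 0 of 6 genes tested were called by edgeR or DESeq2, 0 had an unadjusted p under 0.05, and the median was -0.00. Scarb1, Tlr2 and Tlr4 stood at -0.12 ± 0.15, 0.50 ± 0.29 and 0.21 ± 0.38. Of the other genes around the Saa locus, Saa3 was the one called among 6 tested. Its neighbours Ldha, Gtf2h1, Saal1, Sergef and Hps5 stood at 0.02, 0.01, 0.25, -0.01 and 0.18, with adjusted p-values of 0.569 or higher.

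Levels were also taken in cells grouped by their Saa count, on both sides of the threshold of 5. Lrg1 stood at 224, 332, 463, 463 and 806 CPM in mouse 1 for cells with 0, 1 to 4, 5 to 9, 10 to 19 and 20 or more Saa UMIs. It went from 537 through 754, 1151 and 1249 to 1617 CPM in mouse 2 and from 342 through 501, 866 and 947 to 1198 CPM in mouse 3. Chil1 rose at every step in all 3 mice, reaching 552 to 2678 CPM from 192 to 685 CPM. Saa3 had its steepest step at the end, from 18.4, 57.6 and 16.4 CPM with 10 to 19 Saa UMIs to 69.1, 215 and 224 CPM with 20 or more. Krt8 went from 549.8, 681 and 658 to 474, 592 and 630.3 CPM between the same ends. Deeper cells reach a given Saa count more easily, and that part of the gradients was not tested.

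**Figure D3:**
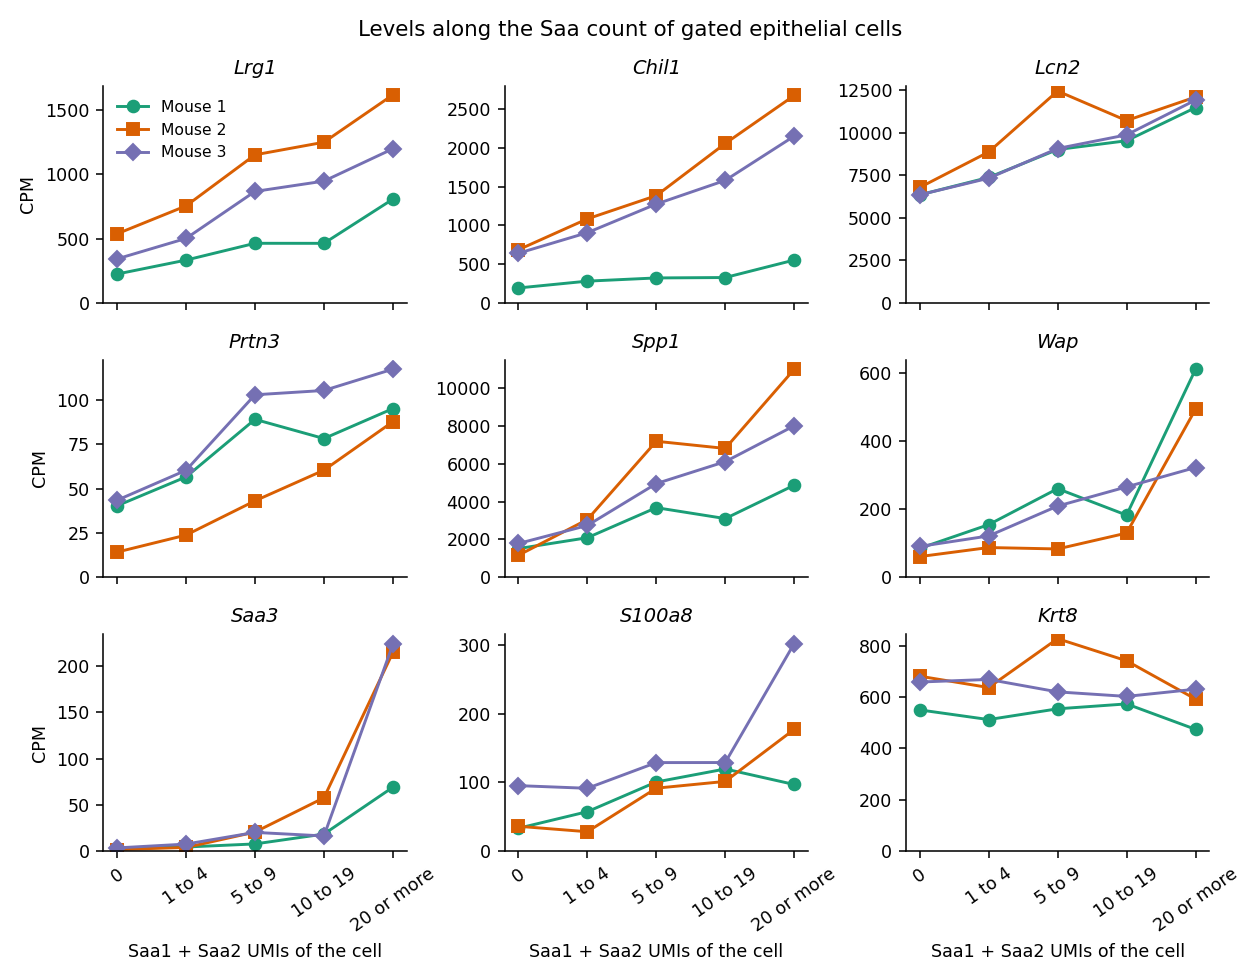
Level of 9 genes, in CPM of summed cells, against the number of Saa1 and Saa2 UMIs of the cell (5 bins), with 1 line per mouse and no error bars. Chil1 climbs at every step in all 3 mice, Lrg1, Spp1, Wap and Saa3 are highest in the last bin in every mouse, and Krt8 stays between 474 and 827 CPM.

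Milk and alveolar genes were higher in Saa-high cells: 13 of 25 tested were called higher and 0 lower, with a median log2 fold change of 0.47. Spp1, which encodes the secreted phosphoprotein osteopontin, reached 3934, 8523, 6342 and 6785 CPM in the Saa-high cells of tumours 1 to 4 against 1504, 1149, 1300.3 and 2193 CPM. Every Saa-high value lay above every Saa-negative value, and the log2 fold change was 2.06 ± 0.15 (adjusted p = 3.31e-09). Wap, the whey acidic protein, reached 363, 248, 263 and 279 against 84.1, 59.9, 47.7 and 127 CPM, again without overlap (1.91 ± 0.10). Lalba, a subunit of lactose synthase, rose by 0.67, Csn3, the kappa casein gene, by 0.48, and Mfge8, a milk fat globule protein gene, by 1.16, although DESeq2 did not call Mfge8. Elf5, which drives alveolar differentiation, rose by 0.41 (adjusted p = 0.0202). The lipid gene Thrsp (0.08 ± 0.10) and the folate receptor gene Folr1 (0.19 ± 0.08) were among the 12 not called. The 13 calls were 7 without mouse 3.

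The beta casein gene Csn2 had a log2 fold change of 4.95 ± 0.43 (adjusted p = 4.48e-08), from 110.3, 159, 43.2 and 30.9 CPM against 7.20, 0.363, 1.62 and 4.66 CPM. Its transcripts lay in 8 of 424, 4 of 238, 6 of 551 and 12 of 842 Saa-high cells, where the top 1% of cells held 89.0%, 99.6%, 100.0% and 97.5% of the UMIs. Wap was spread wider, with a UMI in 35.1%, 27.7%, 25.4% and 36.7% of Saa-high cells. Csn2 thus describes a handful of cells in each tumour and Wap a larger share.

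Of the WFDC and antiprotease list, 3 of 10 genes tested were called higher and 1 lower. Slpi, the secretory leukocyte protease inhibitor, reached 381, 538, 757 and 510.4 against 195, 34.6, 151 and 177 CPM without overlap (log2 fold change 2.25 ± 0.29, adjusted p = 2.62e-05). The log2 ratio was widest in tumour 2, and DESeq2 did not call Slpi (adjusted p = 0.217). Wfdc12 reached 98.2, 59.3, 144 and 56.9 against 44.3, 5.81, 19.2 and 56.8 CPM (1.69 ± 0.22), with almost no gap in tumour 4. The call for Wfdc12 was lost with DESeq2 (adjusted p = 0.186) and without tumour 3 (adjusted p = 0.108). Wfdc3 was the other member called higher, and Cst3, the cysteine protease inhibitor cystatin C, was called lower (-0.70). Cst3 stood at 6956 to 10351 CPM in non-epithelial barcodes, and the part of free RNA from them was not tested. Without tumour 3 the 3 higher calls were 2. Srgn, a granule proteoglycan gene best known from blood cells, rose by 1.64 ± 0.17, from 9.43, 17.7, 13.2 and 15.5 to 12.1, 56.5, 51.9 and 59.7 CPM. It stood at 321 to 514 CPM in non-epithelial barcodes, and the part of free RNA was again not tested.

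Of the involution and lysosome list, 8 of 16 genes tested were called higher and 1 lower. Clu, encoding the extracellular chaperone clusterin, rose by 0.87 ± 0.10 on the log2 scale, and Igfbp5, a growth factor binding protein of involuting epithelium, by 0.61 ± 0.10. The lysosomal cathepsin genes Ctsl and Ctsb rose by 0.66 and 0.50 and the metalloproteinase inhibitor gene Timp1 by 0.67. Bax, whose product promotes apoptosis, was the member called lower, at -0.43 ± 0.09. The 17 secretory pathway genes tested gave 0 calls with edgeR and with DESeq2, 5 with an unadjusted p under 0.05, and a median of 0.13.

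Other lists gave smaller counts. Over all 13473 genes tested, 282 (2.09%) were called higher and 277 (2.06%) lower, so a single call in a short list says little. Of 22 interferon response genes tested, 6 were called higher, with a median of 0.51, among them Irf7 at 0.76, Bst2 at 0.63 and Isg15 at 0.54. Of 20 immediate early and stress genes, 6 were called higher, among them Egr1 (0.58), Fos (0.34) and Hspa1a (0.63), genes that tissue dissociation is known to induce. Of 22 hypoxia and glycolysis genes, Ndrg1 was called higher (0.95 ± 0.15). The 12 class I and 5 class II antigen presentation genes and the 17 oxidative phosphorylation genes tested gave 0 calls with edgeR and with DESeq2. Of them 2, 2 and 5 had an unadjusted edgeR p under 0.05, as did 2139 of all 13473 genes tested. Of 16 junction and identity genes the keratin gene Krt19 rose (0.40 ± 0.09), and of 8 hormone sensing genes Cited1 fell (-1.50 ± 0.42). Without mouse 3 the counts for the interferon, immediate early and hypoxia lists were 0, 0 and 0, and the 8 higher involution genes became 1. The interferon count was also 3 without tumour 4, the immediate early count 2 without tumour 3, and the involution count 5 without tumour 2.

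Proliferation genes were lower: 11 of 25 tested were called lower and 0 higher, with a median log2 fold change of -0.54. Top2a, the topoisomerase of dividing cells, stood at 29.6, 30.7, 22.6 and 20.7 CPM in the Saa-high cells of tumours 1 to 4 and 29.1, 53.2, 54.1 and 36.5 CPM in the Saa-negative cells. Tumour 1 showed no gap and the other 3 tumours did (log2 fold change -0.72 ± 0.16, adjusted p = 0.00727). Birc5, Ccnd1 and Mki67 fell by 0.66, 0.66 and 0.63, with adjusted p-values of 0.00277, 0.00217 and 0.0433. The call for Mki67 was kept without tumour 1 and in cells of at least 3000 UMIs. It was lost with DESeq2 (adjusted p = 0.639), without tumour 2 (0.148), without mouse 3 (0.804) and in cells of 3000 to 5000 UMIs (0.195). Leaving out the 8% of barcodes with the most UMIs lost it too (adjusted p = 0.128). The count of 11 was 20 without tumour 1, 9 without tumour 2, 2 without tumour 3, 3 without tumour 4 and 0 without mouse 3. It was 14 in cells of at least 3000 UMIs and 8, with a median of -0.93, in cells of 3000 to 5000 UMIs.

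Basal epithelial genes divided. Of 13 tested, 6 were called lower (Krt17, Tagln, Krt5, Acta2, Krt15 and Vim) and 1 higher, and the median was -0.89. Krt5 stood at 0, 0, 3.13 and 5.50 against 2.44, 0.957, 15.9 and 5.93 CPM and Krt17 at 2.02, 0.697, 6.96 and 13.4 against 9.21, 21.4, 28.5 and 18.8 CPM, and both were lower in each tumour, though barely so for Krt5 in tumour 4. Krt14 stood at 26.2, 76.7, 108 and 109 against 27.6, 38.3, 67.5 and 69.1 CPM and rose by 0.64 ± 0.14 (adjusted p = 0.00587), with no gap in tumour 1. The 6 lower calls became 0 without tumour 3, whose Saa-negative cells had the highest summed basal level (356 CPM), 4 without tumour 4, 1 without mouse 3 and 0 with DESeq2. The Krt14 call was lost without tumour 2, without tumour 4, without mouse 3 and with DESeq2. In the luminal progenitor list, Cd14, Lbp, Dmkn, Itgb3 and Elf5 were called higher and Aldh1a3 (-1.32) and Kcnn4 lower of 18 tested, while Kit stood at -0.01 ± 0.15.

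Secreted-protein and globin transcripts were among the lowest log2 fold changes, several of them concentrated in few barcodes. Salivary-type secretory genes gave 5 lower calls of 6 tested, and 2 with DESeq2. Dcpp2, a demilune cell and parotid protein gene, stood at 18.2, 16.7, 0 and 0.786 against 35.1, 209.7, 2.21 and 19.3 CPM (-2.85 ± 0.30), and Prol1, a proline-rich lacrimal protein gene, at 18.8, 2.79, 2.09 and 0.786 against 63.9, 13.4, 16.02 and 5.18 CPM (-2.17 ± 0.22). The secretoglobin gene Scgb1b27 had 168, 69.0, 47.0 and 235 against 2822, 361, 259 and 128 CPM, lower in tumours 1 to 3 and higher in tumour 4. In tumour 4 a single Saa-high barcode held 557 of the 895 Scgb1b27 UMIs. Dcpp2 and Prol1 were lower in all 4 tumours. In tumour 4 a single Saa-negative barcode held 222 of the 257 Dcpp2 UMIs, whereas in tumour 2 the 6356 UMIs lay in 459 cells. DESeq2 did not call Dcpp2 (adjusted p = 0.0799) or Dcpp3 (adjusted p = 0.166). In cells of 3000 to 5000 UMIs Dcpp2 stood at -1.44 and Dcpp3 at -1.39, the latter without a call (adjusted p = 0.260). The call for Scgb1b27 was lost with DESeq2, without tumour 3 and in those cells.

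The globin genes Hba-a1 and Hbb-bs, markers of red blood cells, had log2 fold changes of -3.35 ± 0.20 and -2.88 ± 0.16. Hba-a1 stood at 6.73, 2.09, 5.92 and 5.50 CPM in Saa-high and 45.6, 66.1, 79.7 and 28.8 CPM in Saa-negative cells. No Saa-high barcode held more than 2 Hba-a1 UMIs, whereas 1 Saa-negative barcode in each tumour held 221, 665, 495 and 283 of the 431, 2003, 936 and 384 in its arm. Arg1, the urea-cycle enzyme arginase 1, fell more evenly, from 303, 42.6, 199.8 and 119 to 124, 29.3, 60.2 and 37.7 CPM (-1.35 ± 0.14, adjusted p = 5.8e-07). It was lower in all 4 tumours, and the most Arg1 UMIs in 1 Saa-negative barcode were 13 to 22. The claudin gene Cldn10 and the phospholipase gene Plcb4 fell by 1.39 and 1.30 on the log2 scale.

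**Figure D4:**
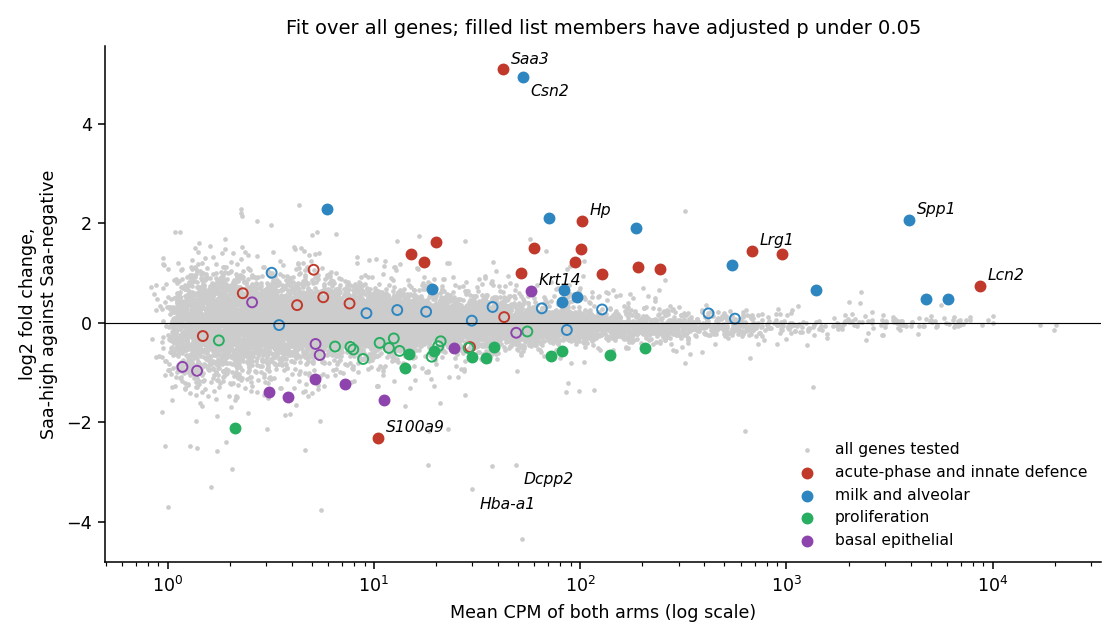
Log2 fold change of each tested gene between Saa-high and Saa-negative cells against its mean CPM in both arms (log scale), with Saa1 and Saa2 left out. Colours mark 4 lists, filled circles are genes with an adjusted p under 0.05 and open circles list members without a call; acute-phase genes lie mostly above 0 up to Saa3 at 5.09, and proliferation genes mostly below 0.

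A narrower question was whether the Saa-high cells differed from Saa-negative cells that make much milk protein. The milk-rich arm was the 3495 Saa-negative cells, 20% of each tumour's, with the largest share of UMIs in Csn1s1, Csn1s2a, Csn2, Csn3, Wap and Lalba. These 6 genes chose that arm and are not tested. They took up 0.600%, 1.34%, 0.631% and 0.928% of the UMIs of Saa-high cells, 0.421%, 1.07%, 0.275% and 0.571% of those of all Saa-negative cells and 1.32%, 2.44%, 1.15% and 1.94% of those of milk-rich cells. The milk-rich cells were shallower, with medians of 1926, 2881, 2809 and 2219.5 UMIs. Both comparisons share the same Saa-high cells. Of 10277 genes tested, 388 (3.78%) were called, 167 (1.62%) higher and 221 (2.15%) lower in Saa-high cells. The count was 157 without tumour 4 and 162 without mouse 3.

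Against milk-rich cells, 11 of 21 tested acute-phase genes were called higher and 0 lower, with a median log2 fold change of 0.49. Saa3 stood at 1.90, 2.04, 7.91 and 4.85 CPM in the milk-rich cells of tumours 1 to 4, and its log2 fold change was 4.64 ± 0.23. Hp (2.27 ± 0.26), C3 (2.13 ± 0.29), S100a8 (1.73 ± 0.20) and Prtn3 (1.71 ± 0.13) also rose. The call for Hp was lost with DESeq2 (adjusted p = 0.135) and that for C3 in cells of 3000 to 5000 UMIs (adjusted p = 0.143). Lcn2 rose by 0.31 ± 0.06, a call that was lost without mouse 3 (adjusted p = 0.233) and with DESeq2 (adjusted p = 0.200). Lrg1 stood at 556, 954, 678 and 935 CPM in milk-rich cells, below the Saa-high level in every tumour but without a call (0.30 ± 0.09, adjusted p = 0.0609). It was called without tumour 1 (0.41, adjusted p = 0.00154), at 3000 or more UMIs in both arms (0.49, adjusted p = 0.00604) and at 3000 to 5000 UMIs (0.53, adjusted p = 0.0228). Chil1 (0.43 ± 0.13, adjusted p = 0.0834) was not called either, and was slightly lower than in milk-rich cells in tumour 1. It was called at 3000 or more UMIs (0.73, adjusted p = 0.000705), at 3000 to 5000 UMIs (0.75, adjusted p = 0.0118), without tumour 1 (0.63), without tumour 3 (0.49) and without mouse 3 (0.54, adjusted p = 0.0299), and its log2 fold change was 0.10 without tumour 2. Lao1 (0.41 ± 0.16, adjusted p = 0.159) was not called. Ltf, at 211, 158, 312 and 382 CPM in milk-rich cells, overlapped the Saa-high values (0.15 ± 0.14, adjusted p = 0.583).

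Osmr (0.60 ± 0.14), Cebpd (0.67 ± 0.17) and Stat3 (0.41 ± 0.09) were the 3 of 18 tested IL-6 and STAT3 genes called higher against milk-rich cells. That count was 1 without tumour 2 or tumour 4 and 0 without mouse 3. All 3 calls were also lost with DESeq2, at 3000 or more UMIs in both arms and at 3000 to 5000 UMIs. They were lost as well without the 8% of barcodes with the most UMIs. Slpi and Wfdc12 rose by 1.90 and 1.61, and DESeq2 called neither (adjusted p = 0.237 and 0.195). Genes of the secretory pathway and the unfolded protein response were lower, with 7 of 17 called: the chaperone gene Hspa5 stood at -0.39 ± 0.09, Manf at -0.57 ± 0.09 and Herpud1 at -0.60 ± 0.14. That count was 3 without tumour 2, 1 without tumour 4, 3 without mouse 3, and 0 in cells of 3000 to 5000 UMIs. The interferon list gave 0 higher calls and 1 lower of 18, and the involution list 1 higher of 16. Proliferation genes had 2 higher calls (Cenpf and Cdk1), 1 lower (Ccnd1) and a median of 0.58 over 23 genes. Prc1, a cytokinesis gene among the 12 highest, rose by 0.99 ± 0.23, but in cells of 3000 to 5000 UMIs its log2 fold change was -0.68 (adjusted p = 0.753). Among the 12 lowest was Hba-a1, at 6.73, 2.09, 5.92 and 5.50 against 18.4, 5.51, 85.4 and 5.39 CPM, with no gap in tumour 4 (-2.61 ± 0.27). Its call was lost without mouse 3 (-1.43, adjusted p = 0.101), and its log2 fold change was -1.38 at 3000 or more UMIs. Others were the tetraspanin genes Tspan1 (-1.54) and Tspan8 (-1.29) and the retinol-binding protein gene Rbp7 (-1.46).

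**Figure D5:**
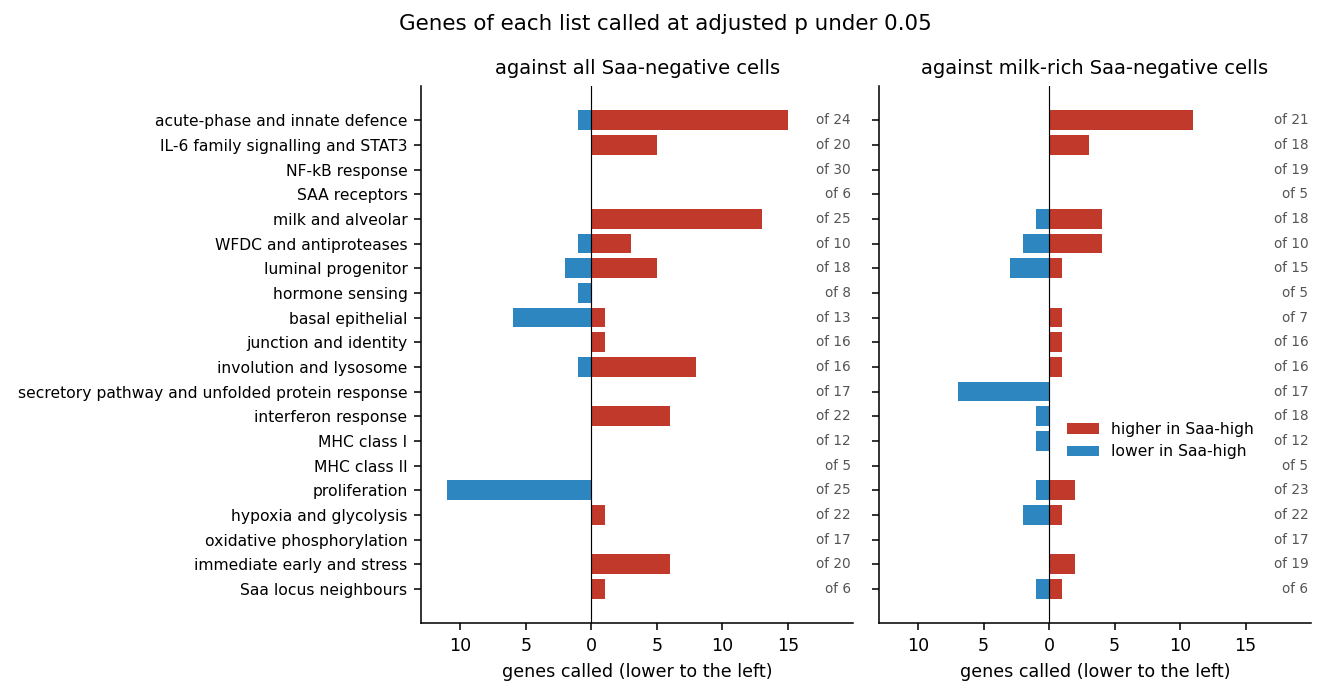
Number of genes of each list called at adjusted p under 0.05, higher (red, to the right) or lower (blue, to the left) in Saa-high cells, against all Saa-negative cells (left) and against milk-rich Saa-negative cells (right); grey numbers are the genes tested. The acute-phase list has 15 and 11 higher calls, and the proliferation list 11 and 1 lower calls.

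With cells of 3000 to 5000 UMIs in both arms, where median depths were 3799 to 3968 against 3707 to 3818 UMIs, 195 genes were called against Saa-negative cells and 172 of them were among the 559. Of the 559, 500 were still tested there and 498 of these had the same sign. Over all genes, 104 of 10018 tested in these cells were called higher. The acute-phase list had 13 higher calls of 21 tested and a median of 1.25, and Saa3, Lrg1 and Lcn2 stood at 5.04, 1.54 and 0.80. The milk and alveolar list had 9 higher calls of 22 tested. Counts of calls depended on the animals. The count of all called genes was 1297 without tumour 1, 324 without tumour 2, 287 without tumour 3, 287 without tumour 4 and 87 without mouse 3, and the acute-phase list had 11 to 17 higher calls over these fits.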

How the data were processed

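Single cells of 4 mammary tumours from 3 mice were profiled by droplet single-cell RNA sequencing. The raw UMI count of each gene in each cell barcode is as deposited by the authors, made with FastQC and Cell Ranger 2.2.0 on the mm10 (GRCm38) build, per the submitters' processing notes; the annotation release is not given in the sources used here. No sample was left out.

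Barcodes were classed by UMI counts as the opening describes. Counts were summed per mouse and arm, with tumours 3 and 4 as mouse 3, and fitted with edgeR 4.0.16 (limma 3.58.1, R 4.3.3): TMM scaling, filterByExpr, the quasi-likelihood test with the mouse as a block, since both arms come from the same animals, and Benjamini-Hochberg adjustment over all genes tested. Mice are the replicates. SE is the absolute log2 fold change divided by the square root of F. The fit was tested on simulated data. No doublet caller was run; leaving out the 8% of barcodes with the most UMIs is an alternative. DESeq2 1.42.0 is another. Thinning drew 1500 UMIs per cell. Intervals are exact binomial 95% intervals and, like the limits for a count of 0 (3 counts), cover counting error only, since cells of 1 tumour are not replicates. CPM compares 1 gene between arms and not genes with each other.

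Named genes are the 12 highest and 12 lowest log2 fold changes among called genes of at least 20 CPM that moved the same way in every mouse, and up to 8 genes by level of the acute-phase, IL-6 and STAT3, NF-kB, SAA receptor, Saa neighbour and milk lists. Members of other lists, and further members of these, were named after their values were seen. The members and lists were chosen with earlier results of these data known. The TTGCNNAA motif and the window of 3000 to 5000 UMIs were added after seeing the data.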

Additional observations from a re-analysis of the deposited data

Results flagged for a closer look

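Among 66 groups of 4 tumours examined, 5 held a tumour set apart from the others by more than Dixon's 95% critical value, which chance gives in about 1 group of 20. For named genes the groups were log2 ratios of CPM + 1 between Saa-high and Saa-negative cells. The others were the share of Saa-high cells, and the Saa1 percentage of Saa UMIs and Saa CPM in these cells. All 5 flagged groups were log2 ratios. For Lrg1 the ratios were 1.39, 1.33, 2.10 and 1.30 in tumours 1 to 4, and the gap to tumour 3 took up 0.893 of the range. For Scarb1, a lipoprotein receptor gene, they were -0.01, 0.02, -0.40 and -0.03, with tumour 3 apart (0.882 of the range). For Tlr4, the lipopolysaccharide receptor gene, they were -0.20, -0.18, -0.21 and 0.50, with tumour 4 apart (0.961). For Sergef, a neighbour of the Saa genes, they were 0.09, 0.06, 0.07 and -0.26, with tumour 4 apart (0.921). For Thrsp, a lipid synthesis gene, they were 0.23, 0.35, -0.75 and 0.17, with tumour 3 apart (0.836). Tumours 3 and 4 come from the same mouse.

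Outside the epithelial gate, 447 barcodes held at least 5 Saa UMIs but fewer than 3 UMIs of Krt8, Krt18 and Epcam, 166, 15, 83 and 183 of them in tumours 1 to 4. They were shallower than the Saa-high cells, with medians of 1999.5, 1994, 2327 and 1919 UMIs, and all of them carried Lcn2. By comparison, 4 of 2953 non-epithelial barcodes, which by definition held no UMI of Krt8, Krt18 or Epcam, reached 5 Saa UMIs. With keratin and Epcam left aside, 23, 4, 61 and 60 barcodes held at least 5 Saa UMIs and more than 1 UMI of C1qa, C1qb, Col3a1 and Cdh5. Their median depths were 3496, 2935.5, 4286 and 4700 UMIs in tumours 1 to 4. No barcode outside the gate entered the Saa-high or the Saa-negative arm.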

How the results depend on the processing

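The mean share of Saa-high cells, 8.61%, lay between 5.22% (thinned cells) and 9.32% (stricter epithelial gate) under its alternatives. Against Saa-negative cells, 559 genes were called. Leaving out 1 tumour at a time, or mouse 3, gave 87 to 1297 calls. DESeq2 gave 163, a Saa minimum of 10 UMIs 306, a minimum of 20 Saa UMIs per 10000 UMIs 282, the stricter gate 368, leaving out the 8% of barcodes with the most UMIs 154, and cells of 3000 to 5000 UMIs 195. Against milk-rich cells, 388 genes were called, and leaving out 1 tumour at a time, or mouse 3, gave 157 to 536. DESeq2 gave 95, the 4 tumours as separate libraries 745, the Saa minimum of 10 UMIs 244, that of 20 per 10000 UMIs 230, a minimum of 3000 UMIs in both arms 178, cells of 3000 to 5000 UMIs 52, and leaving out the 8% of barcodes with the most UMIs 165. Without the replicate block, which sets the arms of the same mouse against each other, edgeR called 3 and 0 genes, the latter with 755 at an unadjusted p under 0.05. The cause of these moves was not tested, but fewer cells or mice enter several of them. Size factors in place of TMM, no filter on low counts and library sizes without Saa1 and Saa2 kept both counts within 1.5 times. Of the named genes that were called, Prc1 changed sign, at -0.68 against milk-rich cells of 3000 to 5000 UMIs. Named genes without a call crossed 0 as well, such as Socs3 (-0.24 to 0.05 against Saa-negative cells), Thrsp (-0.06 to 0.31) and Ltf (-0.15 to 0.41 against milk-rich cells). Shallow cells limit what can be seen of transcripts near 1 UMI per cell.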
